A study of Mus musculus with 9 samples.

Results

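Expression of 10 genes of the heart's neurohormonal systems was examined in the hearts of mice: Agt, Ace and Agtr1a of the renin-angiotensin system, Adra1a, Adra1b, Adrb1 and Pnmt of the catecholamine system, and Corin, Npr1 and Npr3 of the natriuretic peptide system. They were chosen by name, from what they are known to do, out of 21989 gene symbols with a deposited level. Earlier results of these data were known when the 10 were chosen. All 10 were found, and all 10 passed the filter on low values that left 11380 genes for testing. The hearts came from male C57BL/6J mice of 18 to 20 weeks in 3 groups of 3 animals. Sham mice had the operation without constriction and received distilled water. TAC mice had transverse aortic constriction, a surgical narrowing of the aorta against which the left ventricle must pump, and also received distilled water. LD mice had the same constriction and received Lingguizhugan decoction, a herbal formula of traditional Chinese medicine. RNA was taken from heart tissue without separating chambers or cell types, so fewer cells of a type and less RNA per cell cannot be told apart.

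Angiotensinogen is cut by renin and then by angiotensin-converting enzyme to angiotensin II, which acts through the type 1 receptor to raise vascular tone and promote hypertrophy and fibrosis. Noradrenaline from sympathetic nerves and adrenaline, which PNMT makes from noradrenaline, drive heart rate and contractility through beta receptors and growth signalling through alpha-1 receptors. Atrial and B-type natriuretic peptides, processed by proteases that include corin, oppose these systems through the guanylyl cyclase receptor NPR1 and are cleared by NPR3.

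RefSeq promoter windows of build GRCm38.p6 were held for 7 of the 10 genes and not for Agtr1a, Adra1a and Pnmt. The 250 bases before the start are shown for Ace and Adra1b, which had the smallest p-values after Pnmt in TAC against sham, and for Npr1, the guanylyl cyclase receptor. Ace and Adra1b each have 2 RefSeq starts, of which 1 is shown. Each runs 5′ to 3′ in the direction of transcription, with matches to the Sp1 GC box (GGGCGG) or to the Egr1 motif (GCGGGGGCG or GCGTGGGCG), on either strand, in capitals.
Ace, upstream one of its 2 starts, chr11:105967698-105967947, plus strand: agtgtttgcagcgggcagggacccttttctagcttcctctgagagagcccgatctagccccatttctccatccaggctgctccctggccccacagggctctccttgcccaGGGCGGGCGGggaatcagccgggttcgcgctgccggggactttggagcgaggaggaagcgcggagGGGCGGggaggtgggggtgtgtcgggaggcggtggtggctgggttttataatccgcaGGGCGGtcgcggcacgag
Adra1b, downstream one of its 2 starts, chr11:43836490-43836739, minus strand: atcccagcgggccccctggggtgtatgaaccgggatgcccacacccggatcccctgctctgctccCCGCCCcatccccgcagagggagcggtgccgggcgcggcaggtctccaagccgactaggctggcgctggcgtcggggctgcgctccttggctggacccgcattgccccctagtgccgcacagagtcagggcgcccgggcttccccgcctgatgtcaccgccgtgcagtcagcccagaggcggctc
Npr1, chr3:90465867-90466116, minus strand: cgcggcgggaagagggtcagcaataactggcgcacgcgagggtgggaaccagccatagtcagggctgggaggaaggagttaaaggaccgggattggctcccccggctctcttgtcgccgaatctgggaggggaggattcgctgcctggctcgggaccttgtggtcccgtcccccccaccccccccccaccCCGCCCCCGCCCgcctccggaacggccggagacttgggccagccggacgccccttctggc
The Ace window shown held 4 GC boxes, which began 140, 136, 75 and 18 bases before its start, the first pair overlapping. The Adra1b window shown held 1, beginning 185 bases before the start. The other windows of Ace and Adra1b had 0 matches to any motif searched. In Npr1, GC boxes at 60 and 54 bases overlapped an Egr1 match at 59. GC boxes occurred in 32.7% of 32851 RefSeq windows of the same length and GCGGGGGCG in 2.57%. GCGTGGGCG, found in 0.536% of all windows, had no match in any window of these genes. The CRE letters TGACGTCA, present in 1.55% of all windows, also had no match. Neither had the E-box letters CACGTG, present in 6.02%. The Gata letters AGATAA, present in 9.99%, had none either. The short glucocorticoid receptor motif AGAACA, present in 16.1% of all windows, had a match in that of Npr3. These matches describe letters only.

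Levels are FPKM, fragments scaled to gene length and library size, and each value is 1 heart. Whole fragment numbers recovered from the FPKM steps gave 7414304 to 18079383 fragments per library. Cardiomyocyte markers summed to 64434 to 69684 FPKM in sham, 49119 to 65319 FPKM in TAC and 63663 to 94739 FPKM in LD, and the lung genes Sftpc, Sftpb and Scgb1a1 were listed at 0 in all libraries. TAC replicate 3 and LD replicate 3 stood apart from the other 7 libraries, at -51.0 and 48.3 on a first principal component that held 29.4% of the variance, while the others lay between -10.4 and 17.1. In sham replicates 1 and 3 and TAC replicates 2 and 3, genes with 1 to 19 fragments had even fragment numbers in 89.8 to 91.5% of cases, against 45.2 to 52.1% in the other 5 libraries. All 3 LD libraries belong to the other 5. The cause of the even numbers was not tested.

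Pnmt changed place most when the genes were ordered by level in each group. In sham hearts Corin (27.8 ± 0.125 FPKM, SD, n = 3) and Npr1 (26.1 ± 6.76) were highest. They were followed by Adra1b (9.25 ± 4.08), Ace (8.31 ± 1.77), Agtr1a (6.39 ± 0.485), Pnmt (6.18 ± 1.55) and Agt (4.31 ± 2.92). Adrb1 (3.59 ± 1.40), Npr3 (2.02 ± 0.794) and Adra1a (1.87 ± 0.0334) were lowest. Among neighbours in this order, only Npr1 and Adra1b had sham ranges that did not overlap. Pnmt was in place 6 in sham, place 10 in TAC and place 5 in LD. Ace was in place 4 in sham and place 3 in TAC and LD. The level of Adra1a depends on the gene length used: its FPKM steps imply 16142 bases, while its annotated exons cover 8728.

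**Figure D1:**
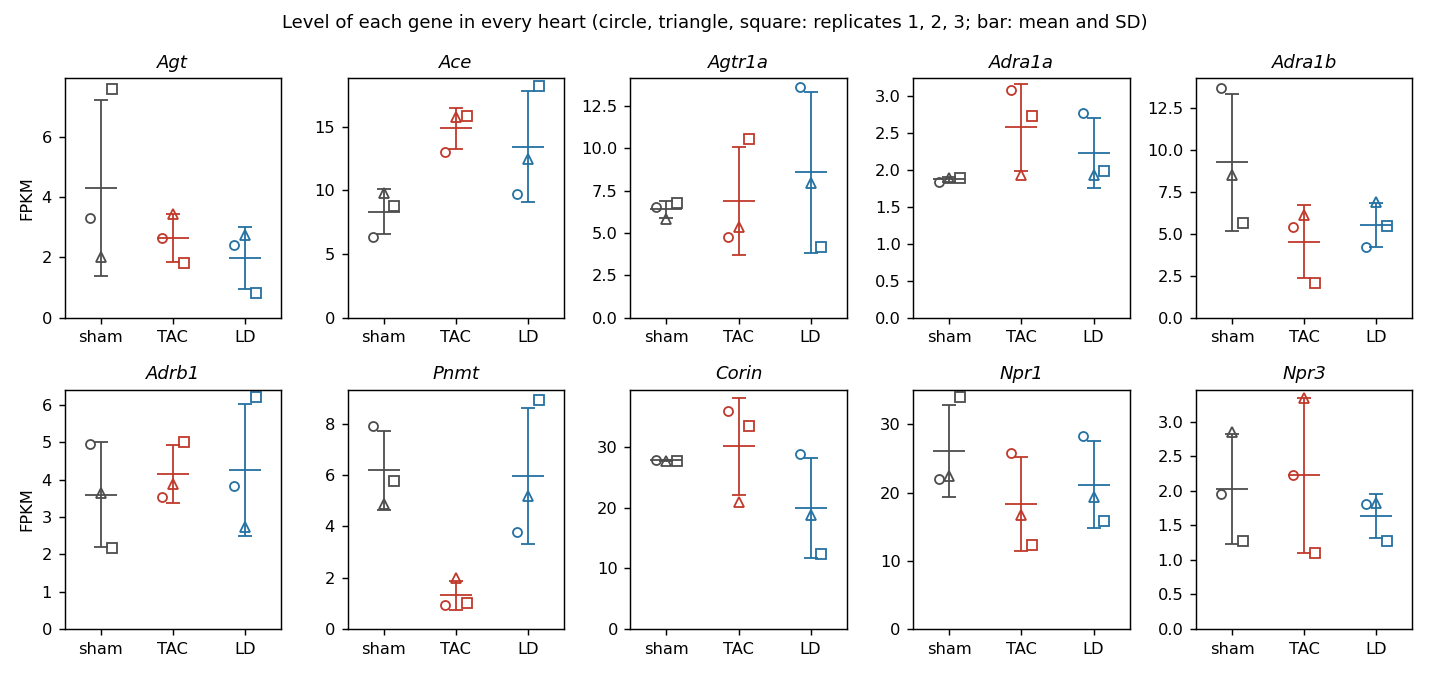
FPKM of the 10 genes (vertical axis of each panel, from 0) in sham, TAC and LD hearts. Circles, triangles and squares are replicates 1, 2 and 3, and bars give the group mean and SD. The 3 TAC values of Pnmt, 0.938 to 1.97, lie below all sham and LD values.

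Pnmt, which encodes phenylethanolamine N-methyltransferase and lies at chromosome 11, 98386450 to 98388181 (GRCm38, plus strand), was lower in every TAC heart than in any sham or LD heart. In sham its levels were 7.89, 4.88 and 5.75 FPKM. In TAC they were 0.938, 1.97 and 1.01 FPKM. In LD they were 3.79, 5.17 and 8.91 FPKM. The TAC range lay apart from both others, and the sham and LD ranges overlapped.

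The mean of Pnmt was 4.74-fold lower in TAC (1.30 ± 0.576 FPKM) than in sham, and 4.57-fold higher in LD (5.96 ± 2.65) than in TAC. On the log2(FPKM + 1) scale, which understates changes of low genes, TAC differed from sham by -1.65 ± 0.33 (SE, limma, unadjusted p = 0.000192, adjusted p = 0.218). LD differed from TAC by 1.56 ± 0.33 (unadjusted p = 0.00032, adjusted p = 0.331). LD differed from sham by -0.09, with a 95% interval of -0.79 to 0.61. Neither difference from TAC passed the adjusted threshold of 0.05. In both, Pnmt had place 10 among the 11380 genes ordered by p, and the comparisons share their 3 TAC libraries. With voom on the recovered fragments the unadjusted p was 0.0447 for TAC against sham and 0.0498 for LD against TAC. Without the pair of libraries that stand apart, the differences were -1.56 and 1.18.

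Few fragments lie behind the TAC values of Pnmt. The 3 TAC libraries had 7, 26 and 8 fragments, the sham libraries 127, 63 and 76, and the LD libraries 25, 83 and 127. Exact Poisson 95% intervals, which cover counting error only and count each pair of fragments once in the 4 libraries with even numbers, reached at most 3.37 FPKM in TAC. The lowest bound among sham libraries was 3.75 FPKM and among LD libraries 2.45 FPKM. By these intervals every TAC heart lay below every sham heart, while LD replicate 1 overlapped TAC replicates 2 and 3.

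Egr1, an immediate-early transcription factor known as an activator of Pnmt in adrenal cells, had the same order of groups. Its levels were 43.2, 26.2 and 19.5 FPKM in sham. They were 8.79, 16.4 and 7.41 FPKM in TAC and 43.6, 18.7 and 20.6 FPKM in LD. All 3 TAC values lay below all values of the other groups. Egr1 differed by -1.37 ± 0.38 between TAC and sham (unadjusted p = 0.00299, adjusted p = 0.666) and by 1.24 ± 0.38 between LD and TAC (unadjusted p = 0.00562, adjusted p = 0.535). With array weights the LD difference was 0.72 (limma, unadjusted p = 0.0563). Of the 5 tested genes on a list of Pnmt regulators, 3 were above 0 and 2 below in TAC against sham, with a median of 0.14. The other 4, Sp1, Nr3c1, Max and Patz1, had unadjusted p-values above the threshold in each comparison, the smallest being 0.05003 for Nr3c1, the glucocorticoid receptor, in LD against TAC (-0.83 ± 0.39).

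The genes beside Pnmt on chromosome 11 did not share this order in every heart. Tcap, a sarcomere gene that ends 1497 bases before Pnmt, ranged from 6146 to 9405 FPKM in sham, from 7499 to 8286 FPKM in TAC and from 8241 to 12783 FPKM in LD. Its TAC range lay inside its sham range. Pgap3, which lies 496 bases after Pnmt on the opposite strand, had 4.41, 1.78 and 4.28 FPKM in sham, 6.52, 0.731 and 0.180 FPKM in TAC and 6.29, 3.63 and 3.67 FPKM in LD. The mean of Pgap3 was lowest in TAC, as that of Pnmt was. Pgap3 differed by -0.79 ± 0.55 in TAC against sham and 1.12 ± 0.55 in LD against TAC (limma, unadjusted p = 0.171 and 0.0595). In TAC replicate 1 Pgap3 was at its highest while Pnmt was at its lowest.

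**Figure D2:**
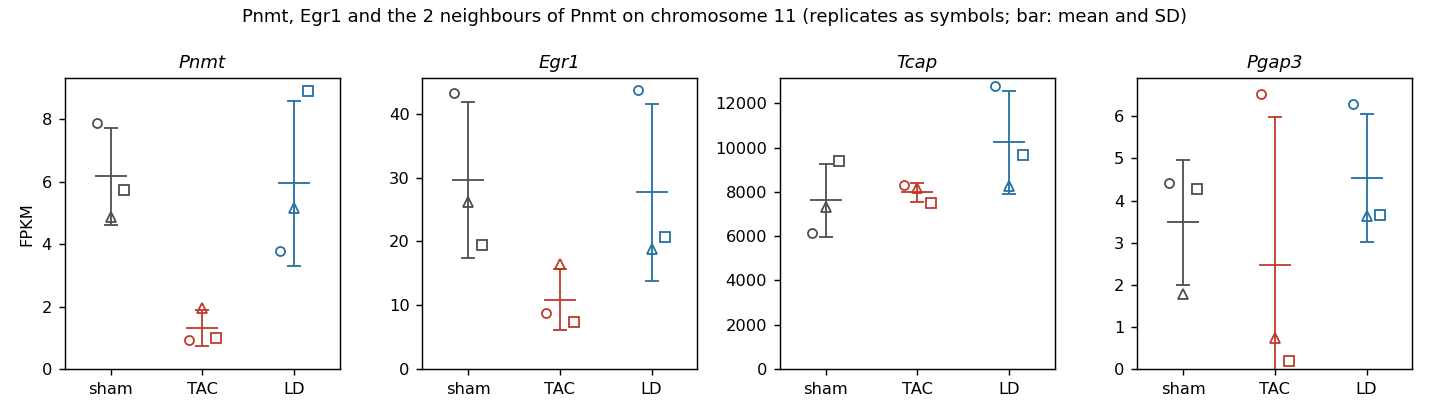
FPKM (vertical axes, from 0) of Pnmt, Egr1 and the neighbours of Pnmt, Tcap and Pgap3, in sham, TAC and LD hearts; symbols are replicates and bars mean and SD. TAC values lie below those of both other groups for Pnmt and Egr1 and overlap them for Pgap3.

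Genes of the earlier steps of catecholamine synthesis had lower mean levels than Pnmt in sham hearts. Th, whose enzyme makes the first step of catecholamine synthesis, and Adrb3 were listed at 0 in all 9 libraries. Dbh, whose enzyme makes the noradrenaline that PNMT uses, ranged from 0.392 to 1.32 FPKM in sham, 0.0980 to 2.14 FPKM in TAC and 0 to 1.62 FPKM in LD. The mean of Dbh was lowest in LD, at 0.856 FPKM. Ddc, another gene of these steps, had its lowest mean in TAC, with means of 0.896 FPKM in sham, 0.265 in TAC and 0.836 in LD. Its groups overlapped. Ddc differed by -0.58 ± 0.38 in TAC against sham and 0.48 ± 0.38 in LD against TAC (limma, adjusted p = 0.987 and 0.683). Maob, whose enzyme breaks down monoamines, was at 5.18 to 10.3 FPKM in sham, 5.43 to 9.64 FPKM in TAC and 2.27 to 5.97 FPKM in LD. Markers of chromaffin cells and sympathetic neurons summed to 21.8 to 32.1 FPKM in sham, 29.7 to 37.0 FPKM in TAC and 29.3 to 31.2 FPKM in LD, with Th and Chga at 0 throughout and 3 of 12 markers passing the filter. Most of this sum came from Hand2, which myocardium also expresses, at 12.4 to 24.2 FPKM in sham, and from Stmn2, a neuronal gene. Stmn2 was at 6.20 to 8.03 FPKM in sham, 9.44 to 19.1 FPKM in TAC and 10.9 to 14.5 FPKM in LD, higher in every operated heart than in any sham heart. Tubb3, a neuronal tubulin gene below the filter, had its lowest mean in TAC, as Pnmt did. Tubb3 was at 0.128, 0.719 and 1.40 FPKM in sham and 0, 0.0780 and 0.130 FPKM in TAC. In LD it was at 0.781, 1.03 and 0.614 FPKM. Its sham and TAC ranges overlapped. The part of nerve or chromaffin cells in the level of Pnmt was not tested.

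Markers of other cell types also moved with Pnmt or against it. Of 11 cardiomyocyte markers, 8 were below 0 in TAC against sham and 8 were above 0 in LD against TAC, with medians of -0.09 and 0.23. Myh6, the main adult myosin heavy chain gene, was lower in every TAC heart (2240 to 2896 FPKM) than in any sham (3448 to 3932 FPKM) or LD heart (3250 to 5488 FPKM). Its differences were -0.54 ± 0.24 and 0.63 ± 0.24. Tnni3, cardiac troponin I, had the same order, with differences of -0.50 ± 0.22 and 0.53 ± 0.22. These differences were smaller than those of Pnmt in size, and their adjusted p-values in limma were 0.537 to 0.905.

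The opposite order was seen in markers of fibroblasts and red cells. All 8 fibroblast markers were above 0 in TAC against sham and below 0 in LD against TAC, with medians of 0.87 and -0.78. All 5 erythroid markers were likewise above and then below 0, with medians of 1.39 and -1.37. Hbb-bs, an adult beta globin gene, was at 215 to 1063 FPKM in sham, 890 to 3903 FPKM in TAC and 521 to 751 FPKM in LD. The part of cell composition in the Pnmt difference was not tested.

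Ace, on chromosome 11 (105967945 to 105989964, plus strand), encodes the enzyme that forms angiotensin II and degrades bradykinin, and was higher in every TAC heart than in any sham heart. Its levels were 6.36, 9.81 and 8.78 FPKM in sham. In TAC they were 13.0, 15.8 and 15.8 FPKM, and in LD 9.68, 12.4 and 18.2 FPKM. LD values spanned the TAC values and reached into the sham range. The TAC mean was 1.79-fold the sham mean. The difference was 0.78 ± 0.27 (unadjusted p = 0.0131, adjusted p = 0.772), and 0.62 without sham replicate 1 (unadjusted p = 0.0668). LD differed from TAC by -0.17 with an interval of -0.76 to 0.42. LD differed from sham by 0.61 ± 0.27 (unadjusted p = 0.0442, adjusted p = 0.875), and by 0.38 without LD replicate 3. Exons of Ace overlap the predicted gene Gm11651 on the opposite strand, whose reads cannot be told apart from it without strand information.

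Cell types that carry Ace were measured beside it. Endothelial markers summed to 3264 to 4523 FPKM in sham and 3548 to 4059 FPKM in TAC, so their TAC range lay inside the sham range. In LD they summed to 3239 to 4888 FPKM. Of the 8 endothelial markers, 1 (Tek) was singly higher in every TAC heart than in any sham heart, beside 5.22% of all genes. Fibroblast markers summed to 376 to 521 FPKM in sham, 583 to 1239 FPKM in TAC and 446 to 555 FPKM in LD. The fibroblast sum was thus higher in every TAC heart than in any sham heart, as Ace was. Singly, this held for 3 of the 8 markers, beside the same 5.22% of all genes. In LD against sham the fibroblast markers had a median difference of 0.08, and Ace differed by 0.61. Smooth muscle and pericyte markers summed to 374 to 442 FPKM in sham and 471 to 608 FPKM in TAC. In LD they summed to 425 to 579 FPKM. Their sum also separated TAC from sham, while 0 of the 9 markers did so singly, beside 9.84% of all genes in either direction. The part of these cell types in the Ace difference was not tested.

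Agt, the angiotensin precursor (chromosome 8, 124556534 to 124569706, minus strand), varied more between hearts of a group than most genes. It was at 3.30, 2.02 and 7.60 FPKM in sham, 2.65, 3.44 and 1.82 FPKM in TAC and 2.42, 2.74 and 0.813 FPKM in LD. All groups overlapped, and sham replicate 3 alone was above 4.31 FPKM, the sham mean. TAC differed from sham by -0.43 (95% interval -1.29 to 0.43) and LD from sham by -0.76 (-1.62 to 0.11). Single libraries set these values: without sham replicate 3 they were -0.012 and -0.34, without sham replicate 2 -0.77 and -1.09, and without LD replicate 3 LD differed from sham by -0.43. Its SD within groups, 0.58 on the log2 scale, was above that of 87.4% of tested genes, whose median SD was 0.37.

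Agtr1a, the main angiotensin II receptor of the mouse heart (chromosome 13, 30336441 to 30382867, plus strand), was even among sham hearts and uneven in both operated groups. It stood at 6.55, 5.84 and 6.77 FPKM in sham, 4.76, 5.37 and 10.5 FPKM in TAC and 13.6, 7.92 and 4.19 FPKM in LD. The TAC and sham means differed by 0.02 (-0.77 to 0.82), and the LD and TAC means by 0.23 (-0.57 to 1.02). The highest TAC heart was replicate 3 and the lowest LD heart was replicate 3, the libraries that stand apart. Without both, LD differed from TAC by 0.91 (limma, unadjusted p = 0.00996). Of 21 alternative ways of processing, which gave -0.14 to 0.91, this alone had an unadjusted p under 0.05. Removing the pair was chosen after seeing the data.

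Of 24 other renin-angiotensin genes, 11 passed the filter, and none passed the adjusted or the unadjusted threshold in any comparison. In TAC against sham 3 were above 0 and 8 below, with a median of -0.14 beside -7.2e-05 for all genes. The renin genes Ren1 and Ren2 were listed at 0 in all 9 libraries, as were the receptor genes Agtr1b and Agtr2. Enpep, whose aminopeptidase trims angiotensin II, was lower in every TAC heart (1.02 to 1.72 FPKM) than in any sham heart (1.82 to 3.00 FPKM), with a difference of -0.53 ± 0.30 (unadjusted p = 0.0955, adjusted p = 0.968).

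The alpha-1 receptor genes Adra1b and Adra1a had differences of opposite sign between TAC and sham, neither past the adjusted threshold. Adra1b (chromosome 11, 43774606 to 43901210, minus strand) was at 13.7, 8.47 and 5.61 FPKM in sham. In TAC it was at 5.37, 6.14 and 2.04 FPKM, and in LD at 4.2, 6.86 and 5.46 FPKM. Sham replicate 3 lay within the TAC range, so the groups overlapped. TAC differed from sham by -0.91 ± 0.37 (unadjusted p = 0.0283, adjusted p = 0.866), and by -0.53 without TAC replicate 3. LD differed from TAC by 0.31 (95% interval -0.49 to 1.11).

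Adra1a, the alpha-1 receptor known for protective signalling in myocytes (chromosome 14, 66635251 to 66771168, plus strand), was nearly constant in sham, at 1.83, 1.89 and 1.89 FPKM. It was at 3.07, 1.93 and 2.73 FPKM in TAC and 2.77, 1.93 and 1.99 FPKM in LD, so every operated heart was above every sham heart. The margin was small: the lowest TAC and LD values exceeded the highest sham value by less than 0.1 FPKM. The difference from sham was 0.30 ± 0.27 in TAC (unadjusted p = 0.288, adjusted p = 0.997) and 0.16 in LD. The ratio of Adra1b to Adra1a was 4.97 ± 2.28 in sham, 1.89 ± 1.22 in TAC and 2.61 ± 1.03 in LD, with overlapping groups, and its level depends on the length used for Adra1a.

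Adrb1, the main beta receptor of ventricular myocytes (chromosome 19, 56722199 to 56733113, plus strand), did not separate the groups. Sham hearts were at 4.96, 3.65 and 2.16 FPKM, TAC hearts at 3.53, 3.89 and 5.02 FPKM and LD hearts at 3.84, 2.73 and 6.20 FPKM. From sham to TAC the difference was 0.20 (95% interval -0.50 to 0.90) and from TAC to LD it was -0.01 (-0.71 to 0.69). These intervals leave room for changes of either sign.

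Of 16 genes for other adrenergic receptors and catecholamine handling, 7 were tested and none passed the adjusted threshold. Adra2b, an alpha-2 receptor gene, was at 0.799, 1.59 and 0.922 FPKM in sham, 2.06, 2.19 and 2.61 FPKM in TAC and 2.63, 1.90 and 2.36 FPKM in LD. It was higher in all operated hearts than in any sham heart, by 0.66 ± 0.28 in both TAC and LD (unadjusted p = 0.0354 and 0.0347, adjusted p = 0.903 and 0.875). Of 31 tested genes of signal transduction below the receptors, none passed the adjusted threshold, and in TAC against sham 20 were above 0 and 11 below. Rgs2, which limits Gq signalling, was at 9.91, 10.1 and 9.11 FPKM in sham, 4.31, 5.09 and 1.82 FPKM in TAC and 6.53, 5.13 and 3.48 FPKM in LD. Every operated heart lay below every sham heart, by -1.25 ± 0.32 in TAC (unadjusted p = 0.00169, adjusted p = 0.561) and -0.85 ± 0.32 in LD. Adcy6, a main cardiac adenylyl cyclase, was also lower in every TAC heart (16.9 to 40.4 FPKM) than in any sham heart (42.8 to 63.6 FPKM), by -0.89 ± 0.30 (unadjusted p = 0.0106, adjusted p = 0.772), and by -0.57 without TAC replicate 2. In LD against TAC 24 of these 31 genes were below 0 and 7 above, where 39.6% of all genes were above 0. Their median was -0.24 beside -0.10 for all genes. Median-of-ratios scaling gave an all-gene median of 0.010, with 51.0% of all genes above 0. Gnaq, which encodes the Gq alpha subunit that alpha-1 and angiotensin receptors use, was at 15.0, 15.1 and 16.4 FPKM in sham. It was at 19.6, 21.7 and 25.5 FPKM in TAC and 17.9, 13.8 and 4.58 FPKM in LD. Every TAC heart lay above every sham heart, by 0.49 ± 0.37 (limma, unadjusted p = 0.201, adjusted p = 0.997). LD differed from TAC by -0.996 ± 0.37 (unadjusted p = 0.0165, adjusted p = 0.537), and by -0.47 without LD replicate 3. Of the 31 genes, 3 lay wholly above sham in TAC, Gnaq among them, and 2 wholly below, beside 5.22% and 4.62% of all genes.

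Corin, the protease that activates atrial natriuretic peptide (chromosome 5, 72300025 to 72504473, minus strand), was almost the same in the 3 sham hearts, at 28.0, 27.7 and 27.8 FPKM. It was at 35.9, 21.0 and 33.5 FPKM in TAC and 28.8, 18.7 and 12.4 FPKM in LD. TAC hearts lay on both sides of sham, and LD replicate 1 was above all sham hearts. LD differed from TAC by -0.61 ± 0.30 (unadjusted p = 0.0626, adjusted p = 0.574), by -0.32 without LD replicate 3 and by -0.90 without LD replicate 1 (unadjusted p = 0.00987). Between TAC and sham the difference was 0.08 (95% interval -0.57 to 0.72).

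Npr1, the receptor for atrial and B-type peptides (chromosome 3, 90450591 to 90465866, minus strand), was at 22.0, 22.5 and 33.9 FPKM in sham, 25.8, 16.7 and 12.4 FPKM in TAC and 28.3, 19.4 and 15.8 FPKM in LD. TAC replicate 1 lay within the sham range and the other TAC hearts below it. TAC differed from sham by -0.52 ± 0.31 (unadjusted p = 0.111, adjusted p = 0.974) and LD from TAC by 0.22 (95% interval -0.44 to 0.88). Leaving out TAC replicate 3 gave -0.29 for TAC against sham, and leaving out TAC replicate 1 gave -0.79 (limma, unadjusted p = 0.0229). Npr3, the clearance receptor (chromosome 15, 11839896 to 11907287, minus strand), was at 1.95, 2.85 and 1.27 FPKM in sham, 2.23, 3.35 and 1.09 FPKM in TAC and 1.81, 1.83 and 1.27 FPKM in LD. The groups overlapped, and TAC differed from sham by 0.06 (-0.65 to 0.78). The ratio of Npr3 to Npr1 was 0.0842 ± 0.0449 in sham, 0.125 ± 0.0654 in TAC and 0.0795 ± 0.0151 in LD. Exons of Corin, Npr1 and Npr3 each overlap a predicted gene on the opposite strand (Gm20647, Gm16048 and Gm5144).

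The ligand genes spanned wider ranges across the 9 hearts than the receptor genes. Nppa, the atrial peptide gene, was at 59.7, 68.8 and 88.4 FPKM in sham, 91.5, 220 and 447 FPKM in TAC and 188, 159 and 477 FPKM in LD. Every operated heart was above every sham heart, by 1.53 ± 0.49 in TAC (unadjusted p = 0.00748, adjusted p = 0.772) and 1.75 ± 0.49 in LD (unadjusted p = 0.00307, adjusted p = 0.6997). Without TAC replicate 3 the TAC difference of Nppa was 0.98. Nppa per Npr1 was 2.79 ± 0.238 in sham, 17.6 ± 16.7 in TAC and 15.0 ± 13.1 in LD. Nppb, the B-type peptide gene, was at 22.5, 37.3 and 26.6 FPKM in sham, 35.8, 72.4 and 71.5 FPKM in TAC and 42.3, 63.7 and 170 FPKM in LD. Of 18 listed natriuretic peptide and cGMP genes 11 were tested, none passed the adjusted threshold, and 8 were above 0 in TAC against sham.

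Atrial tissue was not separated from ventricle, and its markers differed between hearts. Myl7, an atrial myosin light chain, was at 3.18, 1.98 and 7.51 FPKM in sham and 0.403, 3.87 and 0 FPKM in TAC. In LD it was at 0, 1.88 and 42.3 FPKM. The 4 tested atrial markers include Nppa itself, so their count is no separate measure beside Nppa. Myl7 was below 0 in TAC against sham, and Dkk3, Nppa and Myl4 were above, Myl4 by 0.33 ± 0.57. Dkk3, on the same list, differed by 1.47 ± 0.38 (limma, unadjusted p = 0.00186, adjusted p = 0.561). Its level was higher in every operated heart than in any sham heart. LD replicate 3 had the highest Myl7, Nppa and Nppb and the lowest Corin of its group. Bmp10, another atrial gene, was at 0 in all libraries, and the part of atrial tissue in the levels of Nppa, Nppb and Corin was not tested.

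**Figure D3:**
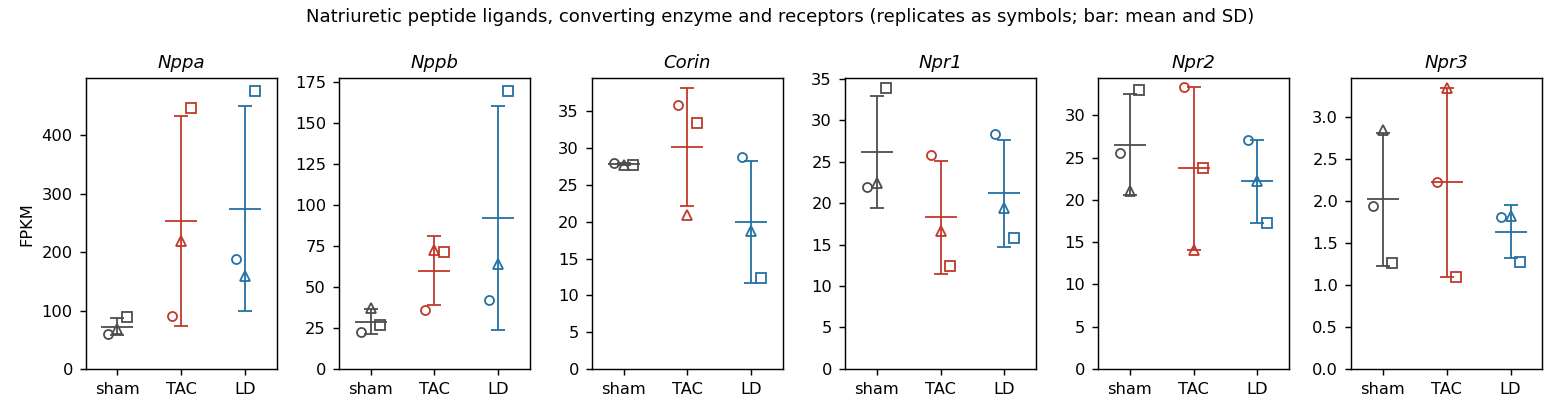
FPKM (vertical axes, from 0) of the ligand genes Nppa and Nppb, the protease gene Corin and the receptor genes Npr1, Npr2 and Npr3 in sham, TAC and LD hearts; symbols are replicates and bars mean and SD. Nppa is above the sham range in all 6 operated hearts, while Corin and the receptors overlap between groups.

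No gene of the 11380 tested passed the adjusted threshold of 0.05 in any of the 3 comparisons, so counts of these 10 genes are given at the unadjusted level beside the share of all genes. In TAC against sham 1 gene was higher (Ace) and 2 were lower (Adra1b, Pnmt) at an unadjusted p under 0.05, beside 5.43% of all genes in either direction, 2.85% higher and 2.58% lower. The groups did not overlap for 3 genes, beside 9.84% of all genes. Ace and Adra1a were the higher ones, beside 5.22%, and Pnmt was the lower one, beside 4.62%. The median difference of the 10 was 0.04, with 6 above 0 and 4 below, where 50% of all genes were above 0.

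In LD against TAC 1 gene was higher at that unadjusted level (Pnmt) and 0 were lower. All genes gave 8.82% in either direction, 2.51% higher and 6.31% lower. Pnmt alone had groups that did not overlap, beside 11.9% of all genes, 3.73% higher and 8.14% lower. The median of the 10 was -0.08 and that of all genes -0.10, with 4 of the 10 and 39.6% of all genes above 0. In LD against sham 1 gene was higher (Ace), beside 5.11% in either direction, 1.52% higher and 3.59% lower. The groups did not overlap for 1 (Adra1a, higher), beside 13.2% of all genes, 4.47% higher and 8.76% lower. The median was -0.13 and that of all genes -0.11, with 4 of the 10 and 37.2% of all genes above 0. By count, 1 of 10 in each comparison with LD is close to what all genes gave.

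**Figure D4:**
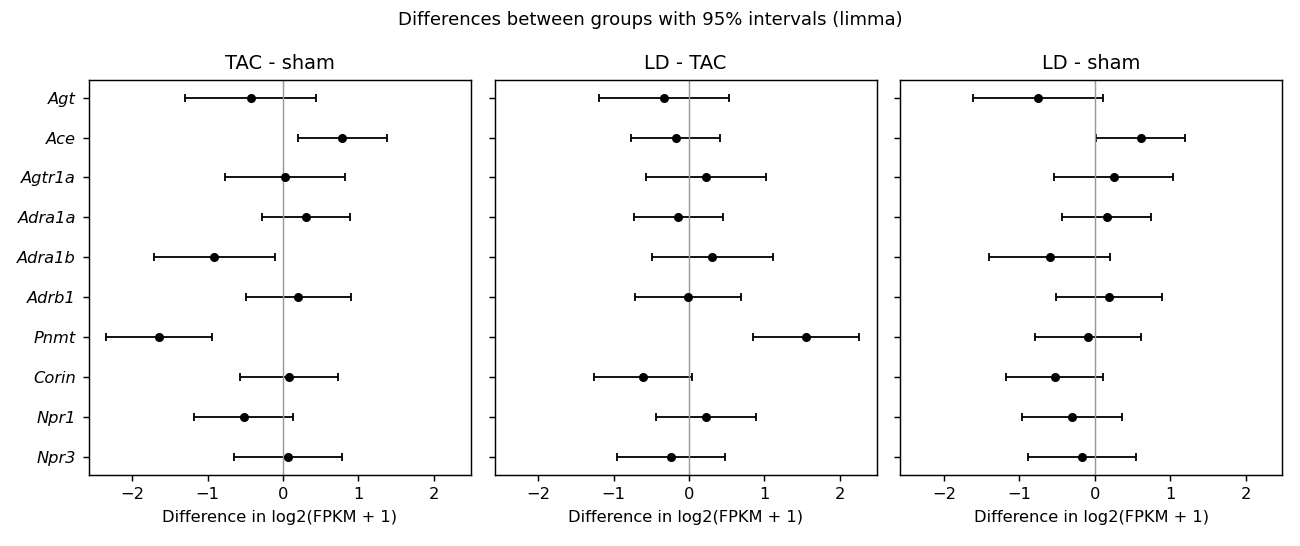
Differences between group means in log2(FPKM + 1) (horizontal axis) with 95% intervals from limma for the 10 genes in TAC against sham, LD against TAC and LD against sham. The intervals of Pnmt lie wholly below 0 in the first and above 0 in the next, and that of Ace lies above 0 in TAC and LD against sham.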

How the data were processed

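Poly-A RNA libraries were made from heart tissue, per the labels' protocols. Strand handling in counting is not given in the sources used here, and GRCm38 is the named build. The submitters' processing notes name CASAVA 1.8, fastp 0.20.0, HISAT2 2.1.0, Cufflinks 2.2.1, HTSeq 0.7.2 and DESeq. The authors deposited 1 table of FPKM values, already scaled to gene length and library size.

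From these, a gene was kept if 3 or more of the 9 libraries reached an FPKM of 1 (11380 genes), and log2(FPKM + 1) was fitted with limma 3.58.1 (R 4.3.3): 1 mean per group, all 3 groups, 6 residual degrees of freedom, trended spread, two-sided tests, Benjamini-Hochberg adjustment over all tested genes. The method was tested on simulated data. Whole fragments were recovered from the FPKM steps for all 16262 genes above 0 (tolerance 0.001). Sequences come from RefSeq and positions from GENCODE on GRCm38.

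The 10 genes and all lists were chosen with earlier results of these data known. Text names all 10, and from each list up to 4 genes of smallest p per comparison, with Nppa, Nppb and Ren1; some results under this rule are not reported here. Genes most like Pnmt, Ace and Adra1b were ranked by Pearson correlation. Dbh, Tcap, Pgap3 and Myl7 were added as context.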

Additional observations from a re-analysis of the deposited data

How the results depend on the processing

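No gene passed the adjusted threshold in LD against TAC under any alternative. In TAC against sham, LD against sham and the test over the 3 groups, 2, 3 and 2 genes passed with a mean FPKM of at least 5, and 9, 135 and 44 with array weights. With voom on recovered fragments 4, 3 and 3 passed, and with only the groups compared 10 passed in LD against sham. Leaving out 1 replicate gave 0 to 13, 0 to 8 and 0 to 8 genes, most without TAC replicate 1. None of the 10 genes passed in any of these; of the other named genes, Nppa (1.32, adjusted p = 0.0342) and Pdk4 (-0.80, adjusted p = 0.0279) passed in LD against sham with array weights. Pnmt lay between -2.21 (pseudocount 0.1) and -1.45 (array weights) in TAC against sham, and between 1.18 and 2.15 in LD against TAC.

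Replicate numbers did not pair the samples (correlations from -0.24 to 0.15). With a replicate block in limma Pnmt differed by -1.65 in TAC against sham and 1.56 in LD against TAC (adjusted p = 0.375 and 0.604), and 0 genes passed in each comparison.

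Among the 10 genes, directions turned for differences of at most 0.31 in size. In TAC against sham, Agtr1a was -0.066 with array weights, -0.013 with voom, and -0.28 without both libraries that stand apart; Corin was -0.095 with array weights and -0.016 without those libraries. In LD against TAC, Adrb1 was 0.11 with median-of-ratios scaling, and Adra1b -0.076 without those libraries. In LD against sham, Pnmt was 0.023 with median-of-ratios scaling, and Adrb1 -0.20 with array weights and -0.064 without those libraries. Removing 1 replicate gave, in TAC against sham, -0.28 to 0.22 for Agtr1a, -0.044 to 0.42 for Adrb1, -0.18 to 0.34 for Npr3 and -0.066 to 0.31 for Corin. In LD against TAC it gave -0.40 to 0.022 for Ace, -0.14 to 0.61 for Agtr1a, -0.27 to 0.21 for Adrb1, -0.071 to 0.54 for Adra1b, -0.012 to 0.49 for Npr1 and -0.51 to 0.012 for Npr3. In LD against sham it gave -0.12 to 0.63 for Agtr1a, -0.064 to 0.41 for Adrb1, -0.38 to 0.15 for Pnmt and -0.36 to 0.021 for Npr3. The cause was not tested. Removing both libraries numbered 3 was chosen after seeing the data.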

Other observations

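Among 11 tested genes on a list of glucocorticoid-responsive genes, none passed the adjusted threshold in limma, and 5 passed an unadjusted p under 0.05 in LD against TAC, 2 higher and 3 lower, beside 2.51% and 6.31% of all genes. Lcn2, a secreted lipid-binding protein gene, was at 1.12, 2.36 and 0.262 FPKM in TAC and 6.31, 6.03 and 3.43 FPKM in LD (difference 1.56, adjusted p = 0.366). Per1, a clock gene, was at 13.0, 6.73 and 7.90 FPKM in TAC and 22.4, 14.1 and 16.4 FPKM in LD. Pdk4, which restrains glucose oxidation, was at 384, 637 and 638 FPKM in TAC and 310, 279 and 306 FPKM in LD. Klf9, a transcription factor gene, was at 103, 119 and 77.9 FPKM in TAC and 68.5, 68.7 and 21.0 FPKM in LD. The LD and TAC groups did not overlap for these 4 genes, nor for Zbtb16, another transcription factor gene, at 48.2, 38.2 and 50.8 FPKM in TAC and 33.5, 26.9 and 16.7 FPKM in LD. All genes gave 3.73% higher and 8.14% lower without overlap.

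Over the 9 libraries, the genes whose levels followed Pnmt most closely were Epha2 (Pearson r = 0.972), Rad9b (0.949) and Asb10 (0.941). Those most like Ace were Gprc5b (0.966), Cpxm2 (0.936) and Ccdc106 (0.931), and those most like Adra1b were Snn (0.924), Sh3bp5l (0.904) and Mrps10 (0.893). These are the highest of 11380 genes and are given as a description.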
